A study of Mus musculus with 6 samples.

Results

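The nephrocystins and cilium transition zone genes described here are *Invs*, *Nek8*, *Nphp4*, *Rpgrip1l*, *Iqcb1*, *Cep290*, *Ahi1* and *Tmem67*. They were chosen by name, as nephronophthisis disease genes other than *Glis2*, and all 8 were found among the 54418 genes of the count table. The libraries were made from sorted mammary epithelial cells of female C57BL/6 mice that were 4 weeks old, 3 labelled WT (here *Glis2*+/+) and 3 labelled Glis2 KO (here *Glis2*-/-, a germline mutation). There was 1 library per mouse and no treatment. Cells had been dissociated overnight, stained for TER-119, CD31, CD45, CD24 and CD49f, and sorted. Each gene was measured as estimated counts of a stranded total RNA library, scaled here to the library total (CPM, normalized by TMM), and as TPM, a level per transcript length.

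The primary cilium is a sensory projection built on a centriole. At its base lies the transition zone, where Y-shaped links join the microtubules to the membrane and gate which proteins enter. The proteins of these genes sit at that gate, at the centriole beneath it, or in the inversin compartment, a segment of the shaft just above it. Mutations in them cause nephronophthisis, a recessive cystic kidney disease, often together with retinal or brain defects. GLIS2, a zinc finger repressor, is itself the product of a nephronophthisis gene. The question here was whether transcripts of its partner disease genes differed in mammary cells with a mutated *Glis2*.

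The libraries held 24996524 to 31393917 counts. *Glis2* itself, the targeted gene, stood at 21.7, 23.2 and 19.6 CPM in the *Glis2*+/+ libraries and at 10.1, 17.0 and 16.3 CPM in the *Glis2*-/- libraries. Its CPM was lower in each mutant library, as for 5.5% of all genes tested. In edgeR this was −0.57 on the log2 scale, with a standard error of 0.22 and a 95% interval of −1.08 to −0.063. The unadjusted p was 0.0319 and the adjusted p 0.906, both from edgeR. On the TPM scale the genotypes overlapped, at 2.82, 4.19 and 2.09 against 3.17, 2.75 and 2.75 TPM, and the log2 fold change was −0.021 for log2(TPM + 1) and 0.078 for rescaled TPM in limma. *Glis2* shares 455 exonic bases with *Pam16* on the other strand. The transcript was present in all 6 libraries, so the genotype rests on the labels. The p-values below measure the spread between these 6 mice. *Krt8*, a luminal keratin, lay between 1238 and 1950 CPM, and *Krt14*, a basal keratin, between 326.8 and 631.3 CPM. *Epcam*, an epithelial adhesion protein, lay between 349.1 and 739.4 CPM. Markers of other cells were also present, among them *Col1a1* of fibroblasts at 669.8 to 2180 CPM, *Pecam1* of endothelium at 44.6 to 198.3 CPM and *Ptprc* of leukocytes. *Pecam1* encodes CD31 and *Ptprc* encodes CD45, both among the antigens stained for the sort. *Ptprc* stood at 7.98 to 11.0 CPM in *Glis2*+/+ and 14.5 to 38.7 CPM in *Glis2*-/- libraries, without overlap, and so did the B cell gene *Cd79a*, at 0.461 to 1.43 and 2.48 to 4.47 CPM. These are 2 of the 7 immune markers, where 6.23% of all genes tested lay higher in *Glis2*-/- without overlap, and neither passed (adjusted p = 0.906 for both, from edgeR). The other 5 overlapped, and the summed level was 18.6 to 36.6 against 34.6 to 70.9 CPM. The part of these cells in the results below was not tested. The summed level of 8 fibroblast markers lay between 2475 and 8271 CPM in *Glis2*+/+ and between 2741 and 6270 CPM in *Glis2*-/- libraries, and that of 6 endothelial markers between 124.4 and 649.4 CPM and between 185.3 and 665.5 CPM. Both were lowest in replicate 2 of each genotype. The summed level of 10 basal markers was 4398 to 5580 CPM in *Glis2*+/+ and 5986 to 7221 CPM in *Glis2*-/- libraries, without overlap. Taken singly, 3 of the 10 lay higher in *Glis2*-/- without overlap, where 6.23% of all genes tested did. Of the 10, 0 were called (smallest adjusted p 0.849, from edgeR). None of the matched markers was at 0 in every library, and *Foxj1*, which marks cells with many motile cilia, lay between 2.30 and 4.86 CPM. In such bulk libraries, fewer cells of a type and less RNA per cell cannot be told apart.

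No difference between the genotypes was called for any of the 8 genes, as for every other gene tested. In edgeR's quasi-likelihood test, 0 of 8 passed an adjusted p of 0.05 with an absolute log2 fold change of 0.58, as did 0% of the 21236 genes tested (smallest adjusted p 0.392, from edgeR). An unadjusted p under 0.05 was obtained for 0 of the 8 genes, against 5.32% of all genes tested, and with DESeq2, which called 45 genes in all, 0 of the 8 were called. For 0 of the 8 did the 3 mice of one genotype lie apart from the 3 of the other, against 11.7% of all genes (6.23% with *Glis2*-/- above and 5.5% with it below). Of the 8, 6 were fitted higher and 2 lower in *Glis2*-/- cells, where 51.6% of all genes were fitted higher. With log2(TPM + 1) in limma the tally was 3 higher and 5 lower, and with rescaled TPM 4 and 4. The median over all genes tested was −0.064 and −0.053 in these fits. In edgeR the median log2 fold change of the 8 genes was 0.050, against 0.011 over all genes tested. The summed level of the 8 genes lay between 224.7 and 246.0 CPM in *Glis2*+/+ and between 226.5 and 253.6 CPM in *Glis2*-/- libraries, so its highest and lowest libraries differed by 1.13-fold.

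On the scale of counts, the edgeR intervals bound the change of most of these genes. The 95% interval of the log2 fold change lay within 0.58 of 0 for 5 of the 8 genes, *Invs*, *Iqcb1*, *Cep290*, *Rpgrip1l* and *Ahi1*, against 29.4% of all genes tested. Each interval is for 1 gene, without adjustment. That of *Ahi1* was close to the limit, with a lower end of −0.575, and its log2 fold change moved from −0.213 to −0.222 with DESeq2 size factors in place of TMM. The interval was narrowest for *Cep290*, between a 0.863-fold and a 1.21-fold level. The bound is one on counts, and the TPM fits of *Cep290*, −0.23 to −0.32 on the log2 scale, lay below its lower end of −0.21. For *Nek8*, *Tmem67* and *Nphp4*, the genes with the fewest counts of the 8, the intervals reached past this bound.

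**Figure D1:**
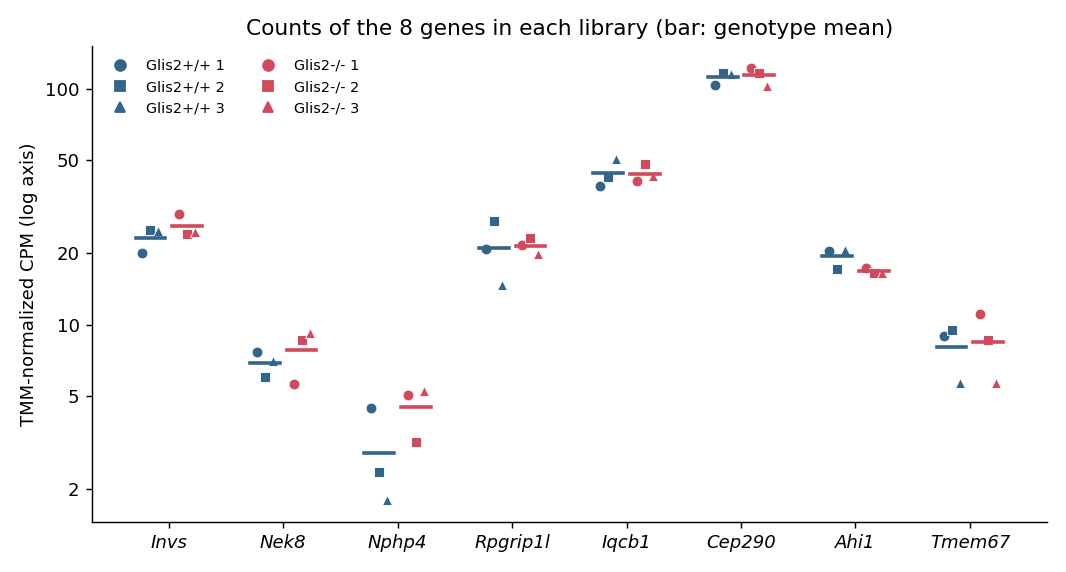
TMM-normalized CPM on a log axis for the 8 genes in each of the 6 libraries, with a marker shape per replicate and a bar at the mean of each genotype. The genotypes overlap for all 8 genes, and the spread between mice is widest for *Nphp4*, whose lowest and highest libraries stand at 1.80 and 5.24 CPM.

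The start sites of these genes are shown first for what the sequence holds. RefSeq windows of 300 bases on GRCm38.p6, from 250 bases before to 50 bases after an annotated start, were matched for 7 of the 8 genes by symbol, 10 windows in all. *Tmem67* had no window. These windows are rich in CpG, with a median of 25 CpG dinucleotides against 7 in all 32851 windows and a median GC content of 61.8% against 52.7%. The letters searched, on both strands, were the X-box (GTTNCC and GGNAAC with 2 bases between them) bound by RFX factors, which drive many cilium genes, its short form GTTGCC, the GLI site TGGGTGGTC, the GLIS-type site TGGGGGGT, the CCAAT box CCAAT, the GC box GGGCGG and the palindromic NRF1 site. The full X-box stood in 1 of the 10 windows, that of *Ahi1*, and in 0.451% of all windows. The short form stood in 2 windows, where that of *Ahi1* lies inside its X-box, and in 12.5% of all windows. The CCAAT box stood in 6 and the GC box in 5 of the 10 windows, against 37.4% and 35.7% of all windows. The GLI, GLIS-type and NRF1 letters stood in 0 of the 10 windows, against 0.253%, 1.53% and 0.971% of all windows. Such matches describe letters and no binding. The X-box of *Ahi1* is given with its flanks, followed by the 250 bases before the start of *Iqcb1* and *Cep290*, the pair with the highest level per length, of *Nphp4*, the lowest, and of *Ahi1*. Capitals mark each match to a searched motif, neighbouring matches can share a base, and all are on the plus strand, 5′ to 3′.
Ahi1 X-box, chr10:20952560-20952589: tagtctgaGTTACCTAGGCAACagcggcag
Iqcb1, chr16:36828150-36828399: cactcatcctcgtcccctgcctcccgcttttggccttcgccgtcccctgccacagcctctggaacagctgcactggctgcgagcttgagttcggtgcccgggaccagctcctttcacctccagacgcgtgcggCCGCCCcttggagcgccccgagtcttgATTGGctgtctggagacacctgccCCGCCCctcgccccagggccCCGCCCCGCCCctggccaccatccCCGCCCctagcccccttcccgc
Cep290, chr10:100487332-100487581: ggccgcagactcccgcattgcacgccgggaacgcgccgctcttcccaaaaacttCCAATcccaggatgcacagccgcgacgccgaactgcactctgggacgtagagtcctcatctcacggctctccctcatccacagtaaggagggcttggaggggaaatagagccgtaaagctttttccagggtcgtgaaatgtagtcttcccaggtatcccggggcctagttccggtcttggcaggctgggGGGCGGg
Nphp4, chr4:152477488-152477737: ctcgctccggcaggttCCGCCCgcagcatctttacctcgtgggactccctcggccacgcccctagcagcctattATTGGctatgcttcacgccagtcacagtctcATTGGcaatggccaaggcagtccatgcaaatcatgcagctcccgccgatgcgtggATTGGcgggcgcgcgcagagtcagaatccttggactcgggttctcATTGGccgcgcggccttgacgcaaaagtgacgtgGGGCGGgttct
Ahi1, chr10:20952297-20952546: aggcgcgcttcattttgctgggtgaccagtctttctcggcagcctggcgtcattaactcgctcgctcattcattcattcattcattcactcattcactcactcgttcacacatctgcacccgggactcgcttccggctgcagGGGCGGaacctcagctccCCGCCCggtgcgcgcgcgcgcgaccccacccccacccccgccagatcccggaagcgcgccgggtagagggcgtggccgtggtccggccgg

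In the *Iqcb1* window the GC box stands 5 times within 117 bases of the start, with 1 CCAAT box between them. The *Nphp4* window shown is the 1 of 3 listed for that gene with the most matches, and holds 4 CCAAT boxes between 176 and 41 bases before the start. The *Ahi1* X-box begins 21 bases after the first base of the annotated start, in the first of the 2 windows of that gene. The other window of *Ahi1* has 3 CpG dinucleotides and a GC content of 37.3%.

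The inversin compartment holds inversin and the kinase NEK8. *Invs* (ENSMUSG00000028344, chromosome 4, 48279760 to 48431954 of GRCm38) encodes inversin, an ankyrin repeat protein first known from mice with reversed left-right asymmetry. It stood at 19.996, 25.1 and 25.0 CPM in *Glis2*+/+ and at 29.5, 24.2 and 24.7 CPM in *Glis2*-/- libraries. The *Glis2*+/+ library of replicate 1 was the lowest and the *Glis2*-/- library of replicate 1 the highest, with the other 4 libraries between them. The log2 fold change was 0.16 (standard error 0.16, 95% interval −0.20 to 0.53, adjusted p = 0.946 from edgeR). Without the *Glis2*+/+ library of replicate 1 it was 0.044 and without the *Glis2*-/- library of replicate 1 it was 0.064. *Invs* overlaps *Tex10* on the other strand by 226 exonic bases, and *Tex10* had 876 to 1141 counts per library, more than *Invs* in each. *Nek8* (ENSMUSG00000017405, chromosome 11, 78166106 to 78176675, minus strand) encodes a NIMA-related kinase that acts with inversin. Its values were 7.62, 5.99 and 6.98 CPM in *Glis2*+/+ and 5.59, 8.58 and 9.17 CPM in *Glis2*-/- libraries. The *Glis2*-/- libraries held both the lowest and the highest values, and the log2 fold change was 0.18 (standard error 0.27, 95% interval −0.43 to 0.79, adjusted p = 0.973 from edgeR). With 1 library left out it lay between 0.033, without the *Glis2*-/- library of replicate 3, and 0.37, without that of replicate 1. On the TPM scale the direction of *Nek8* was the opposite, with −0.23 for log2(TPM + 1) in limma.

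*Nphp4* and *Rpgrip1l* encode scaffold proteins that bind each other at the transition zone. *Nphp4* (ENSMUSG00000039577, chromosome 4, 152476706 to 152563183) encodes nephrocystin-4 and had the fewest counts of the 8 genes, 136, 68 and 47 in *Glis2*+/+ and 126, 95 and 164 in *Glis2*-/- libraries. After normalization these were 4.41, 2.38 and 1.80 CPM and 5.04, 3.17 and 5.24 CPM. The *Glis2*+/+ library of replicate 1 lay above the *Glis2*-/- library of replicate 2, and the other libraries were ordered by genotype. *Nphp4* had the largest fitted difference of the 8 genes, a log2 fold change of 0.64 (standard error 0.42, 95% interval −0.31 to 1.60, adjusted p = 0.940 from edgeR). Its coefficient of variation between mice was 47.8% in *Glis2*+/+ and 25.4% in *Glis2*-/- libraries, while counting error alone gives 14.6% at its lowest count. Leaving out the *Glis2*+/+ library of replicate 1 moved the log2 fold change to 1.08, and leaving out that of replicate 3 moved it to 0.40. In limma it was 0.17 with log2(TPM + 1), 0.64 with log2(TPM + 0.1) and 0.59 with rescaled TPM, and none of these was called. Over the 6 libraries, *Nphp4* followed the summed level of the 10 basal markers with a Pearson correlation of 0.89 (Spearman 0.94), the highest of 32 such correlations between the 8 genes and 4 marker lists. The points share library and depth. The summed basal level was itself apart between the genotypes, though none of its markers was called. The part of this level in the *Nphp4* difference was not tested.

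*Rpgrip1l* (ENSMUSG00000033282, chromosome 8, 91217030 to 91313262, minus strand) encodes a large protein that anchors other transition zone components. It stood at 20.97, 27.6 and 14.7 CPM in *Glis2*+/+ and at 21.6, 23.2 and 19.8 CPM in *Glis2*-/- libraries. All 3 *Glis2*-/- values lay inside the range of the *Glis2*+/+ mice, whose coefficient of variation was 30.4%, against 7.796% in *Glis2*-/-. The log2 fold change was 0.031 (standard error 0.23, 95% interval −0.49 to 0.55, adjusted p = 0.996 from edgeR). On the TPM scale it was 0.23 for log2(TPM + 1) and 0.41 for rescaled TPM in limma, without a call. *Rpgrip1l* ran against the summed fibroblast markers, with a Pearson correlation of −0.82 (Spearman −0.94) over 6 libraries, and the part of these cells in its spread was not tested.

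*Iqcb1* and *Cep290* encode a pair of partner proteins of the centriole and the transition zone, both known from retinal ciliopathy. *Iqcb1* (ENSMUSG00000022837, chromosome 16, 36828385 to 36872721) encodes the calmodulin-binding protein nephrocystin-5 and lies on the same chromosome as *Glis2* (4594713 to 4624924). Its values were 38.6, 42.2 and 50.2 CPM in *Glis2*+/+ and 40.7, 47.7 and 42.4 CPM in *Glis2*-/- libraries, the latter again inside the range of the former. Its log2 fold change was −0.0015 (standard error 0.14, 95% interval −0.31 to 0.31, adjusted p = 1.000 from edgeR). *Cep290* (ENSMUSG00000019971, chromosome 10, 100487558 to 100574840) encodes a long coiled-coil protein of the Y-shaped links. It had 2993 to 3486 counts per library, the most of the 8 genes. It stood at 103.6, 116.1 and 114.9 CPM in *Glis2*+/+ and at 122.7, 116.4 and 102.9 CPM in *Glis2*-/- libraries, with the lowest and the highest value both in *Glis2*-/-. The log2 fold change was 0.032 (standard error 0.11, 95% interval −0.21 to 0.28, adjusted p = 0.985 from edgeR), and −0.27 for log2(TPM + 1) in limma. On the CPM scale *Cep290* followed the summed luminal markers with a Pearson correlation of 0.89 (Spearman 0.83) over 6 libraries. In rescaled TPM the *Glis2*-/- library of replicate 2 was the lowest for *Cep290*, at 23.8 TPM, and it was the highest in summed luminal markers, at 6853 CPM. The part of luminal cells in the spread of *Cep290* was not tested. *Cep290* overlaps 4930430F08Rik on the other strand by 881 exonic bases, and that gene had 91 to 187 counts per library.

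*Ahi1* and *Tmem67* are genes of Joubert syndrome as well as of nephronophthisis. *Ahi1* (ENSMUSG00000019986, chromosome 10, 20952547 to 21080429) encodes jouberin, a WD40 protein, and carries the X-box shown above. It stood at 20.5, 17.2 and 20.7 CPM in *Glis2*+/+ and at 17.3, 16.5 and 16.6 CPM in *Glis2*-/- libraries. The *Glis2*-/- values were close together, with a coefficient of variation of 2.85%, and 1 of them lay above the lowest *Glis2*+/+ value. This was the largest fitted fall among the 8 genes, with a log2 fold change of −0.21 (standard error 0.16, 95% interval −0.57 to 0.15, adjusted p = 0.941 from edgeR). In limma it was −0.28 for log2(TPM + 1) and −0.36 for rescaled TPM. On the CPM scale *Ahi1* followed the fibroblast markers with a Pearson correlation of 0.74 (Spearman 0.71) over 6 libraries, the opposite sign to *Rpgrip1l*. Against the basal markers it was −0.69 (Spearman −0.60). In rescaled TPM the *Glis2*+/+ library of replicate 2 was the highest for *Ahi1*, at 12.8 TPM, and it was the lowest in summed fibroblast markers, at 2475 CPM. The part of these cells in its level was not tested. *Tmem67* (ENSMUSG00000049488, chromosome 4, 12039355 to 12090020, minus strand) encodes meckelin, a membrane protein of the transition zone. Its values were 8.94, 9.52 and 5.64 CPM in *Glis2*+/+ and 11.1, 8.61 and 5.62 CPM in *Glis2*-/- libraries. Replicate 3 was the lowest in both genotypes, and the log2 fold change was 0.068 (standard error 0.32, 95% interval −0.66 to 0.80, adjusted p = 0.992 from edgeR). Its direction turned in 5 of 14 alternatives, with −0.057 for log2(TPM + 1) in limma and a range of −0.18 to 0.28 with 1 library left out. *Tmem67* overlaps *Rbm12b2* on the other strand by 289 exonic bases, and *Rbm12b2* had 425 to 956 counts per library, more than *Tmem67* in each.

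Levels of different genes were compared per length, on the TPM scale. Gm23935, annotated as a microRNA gene, took 83.0% to 85.7% of the TPM of each library, so TPM values were also rescaled over all other genes. On that scale *Iqcb1* was the highest of the 8 with a median of 56.4 TPM and a range of 46.5 to 82.5, above 87.4% of tested genes. *Cep290* followed with a median of 28.1 (23.8 to 36.2), and this pair held the first and second rank in 6 of 6 libraries. *Invs*, with a median of 17.1 (13.3 to 20.1), lay below *Cep290* in 6 of 6 libraries. *Invs* lay above *Nek8* (median 7.63) and above *Ahi1* (7.57) in 6 of 6 libraries. *Rpgrip1l* (11.9) had no fixed place among them, below *Invs* in 4 of 6 libraries and above *Nek8* in 4 of 6, and *Nek8* lay above *Ahi1* in 2 of 6. *Tmem67* had a median of 3.67, below *Ahi1* in 6 of 6 libraries. *Nphp4* was the lowest with a median of 1.14, below *Tmem67* in 5 of 6 libraries, and above 20.5% of tested genes. With CPM per kilobase of annotated exonic sequence in place of TPM, *Cep290* (median 9.94) stood above *Iqcb1* (7.85) and *Nphp4* (0.627) was again the lowest. On that scale *Ahi1* (2.45) stood above *Invs* (2.18), *Rpgrip1l* (1.45) and *Nek8* (1.40), so the order within the top pair and within the middle genes depends on the lengths used.

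**Figure D2:**
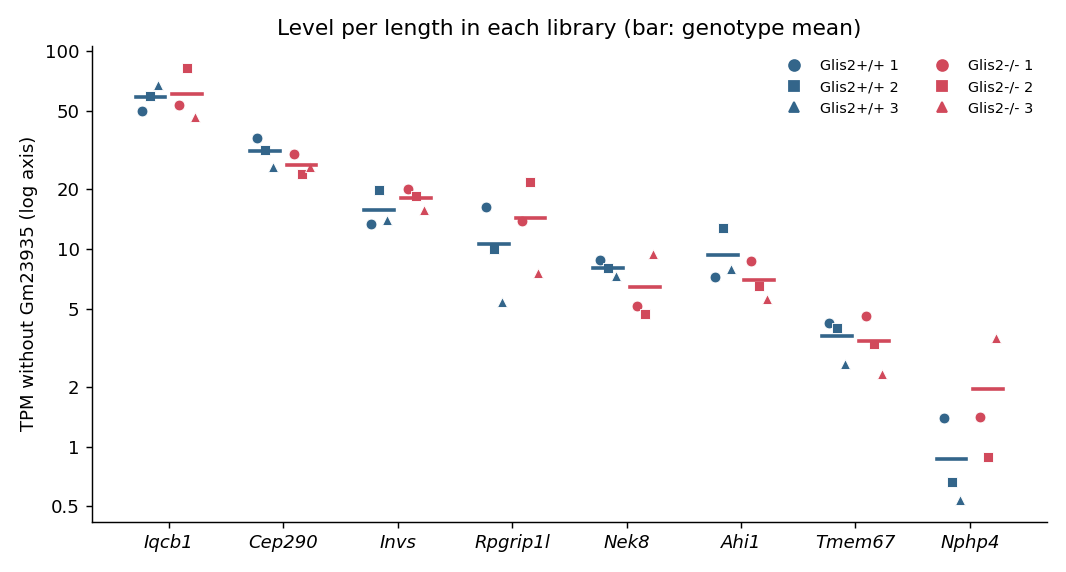
TPM rescaled without Gm23935, on a log axis, for the 8 genes ordered by their median over 6 libraries, with bars at the genotype means. *Iqcb1* and *Cep290* stand above the others in all 6 libraries, and the *Glis2*-/- library of replicate 3 stands apart for *Nphp4* at 3.55 TPM.

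Counts and TPM parted for several of these genes. The counts behind 1 unit of TPM scale with the transcript length that the quantification assigned, and are given relative to the median gene of the library. For *Nphp4* this ratio was between 2.65 and 2.79 in 5 libraries and 1.15 in the *Glis2*-/- library of replicate 3, so that library placed its *Nphp4* reads on shorter transcripts. For *Rpgrip1l* it ranged from 0.805 to 2.26, a 2.80-fold difference, for *Nek8* 2.36-fold and for *Ahi1* 2.27-fold. *Cep290*, *Invs* and *Iqcb1* differed by 1.54-fold, 1.502-fold and 1.62-fold between libraries, and *Tmem67* by 1.104-fold. The median over tested genes was 1.17-fold. Of the 8 genes, 7 thus lay above this median. The ratios of 7 genes overlapped between the genotypes, and those of *Tmem67* did not, at 1.78 to 1.85 in *Glis2*+/+ and 1.87 to 1.96 in *Glis2*-/- libraries. This was 1 of 8 genes, against 8.33% of all genes tested, and the difference was not tested. The annotation lists between 6 and 10 transcripts for each of the 8 genes. With short paired reads, how the reads of 1 gene divide between its transcripts is an estimate, and which transcripts were used was not tested.

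**Figure D3:**
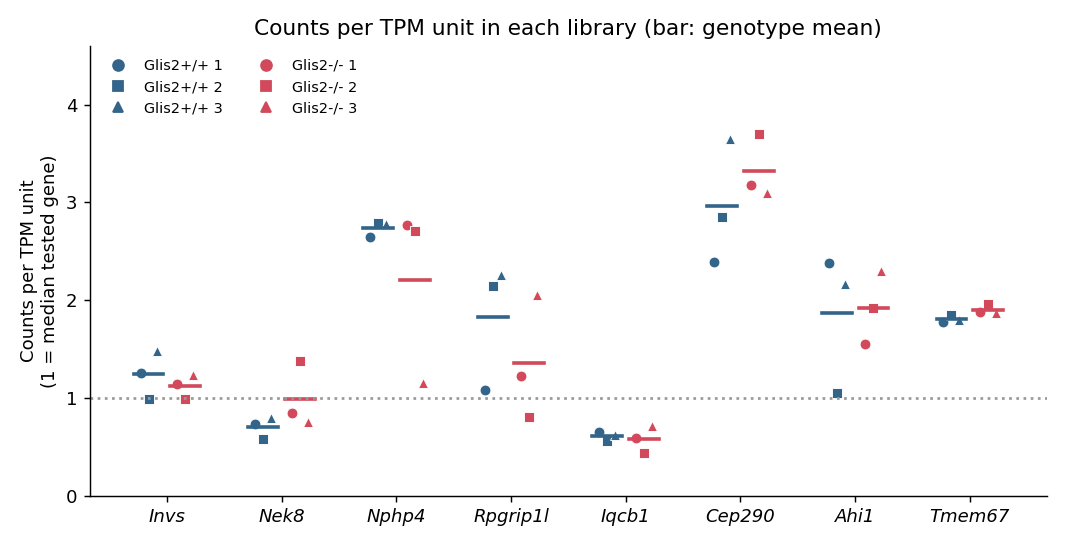
Counts per unit of TPM, relative to the median tested gene of the same library (dotted line at 1), for the 8 genes, with bars at the genotype means. The *Glis2*-/- library of replicate 3 falls to 1.15 for *Nphp4*, while the 6 libraries of *Tmem67* lie between 1.78 and 1.96.

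The 8 genes did not rise and fall together across the mice. Of the 28 pairs among them, 14 had a positive and 14 a negative Pearson correlation of log2 CPM over the 6 libraries, with a median of −0.060. *Invs* and *Cep290* were the most alike (0.75) and *Nphp4* and *Iqcb1* the least (−0.72). *Rpgrip1l* and *Tmem67* also varied together (0.71). The partner genes *Iqcb1* and *Cep290* had a correlation of 0.32 and those of the inversin compartment, *Invs* and *Nek8*, one of −0.52. *Cep290* and *Nek8* varied in opposite directions (−0.71). Among 29 other nephronophthisis and transition zone genes, those most like the mean standardized level of the 8 were *Xpnpep3* (Pearson 0.88, Spearman 0.83), *Tmem231* (0.85 and 0.89) and *Tctn1* (0.80 and 0.77). At the other end *Tmem237* ran against it (−0.89 and −0.83). These values describe 6 libraries that share depth and cell mixture.

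The rest of the pathway gave the same count of calls. Of 13 other nephronophthisis genes, all tested, 0 were called by edgeR, 6 were fitted higher and 7 lower, and the median log2 fold change was −0.023. Of 16 other transition zone genes, all tested, 0 were called by edgeR, 10 were fitted higher and 6 lower, with a median of 0.070. The interval lay within 0.58 of 0 for 7 of the 13 and for 3 of the 16, whose counts went down to 25 per library. The largest fitted rises were those of *Zfp423*, a zinc finger factor (0.41, standard error 0.33), and *Tmem216*, a transition zone membrane protein (0.42, standard error 0.55). Without the *Glis2*+/+ library of replicate 2, *Tmem216* stood at 1.096 and *Zfp423* at 0.15. Without the *Glis2*+/+ library of replicate 3 *Tmem216* stood at 0.053, without the *Glis2*-/- library of replicate 1 at 0.11, and without the *Glis2*-/- library of replicate 3 *Zfp423* stood at 0.053. The largest fitted fall among the transition zone genes was that of *Tmem107* (−0.57, standard error 0.40), which was −0.19 for log2(TPM + 1) and −0.28 for rescaled TPM in limma, and −0.85 to −0.40 with 1 library left out.

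**Figure D4:**
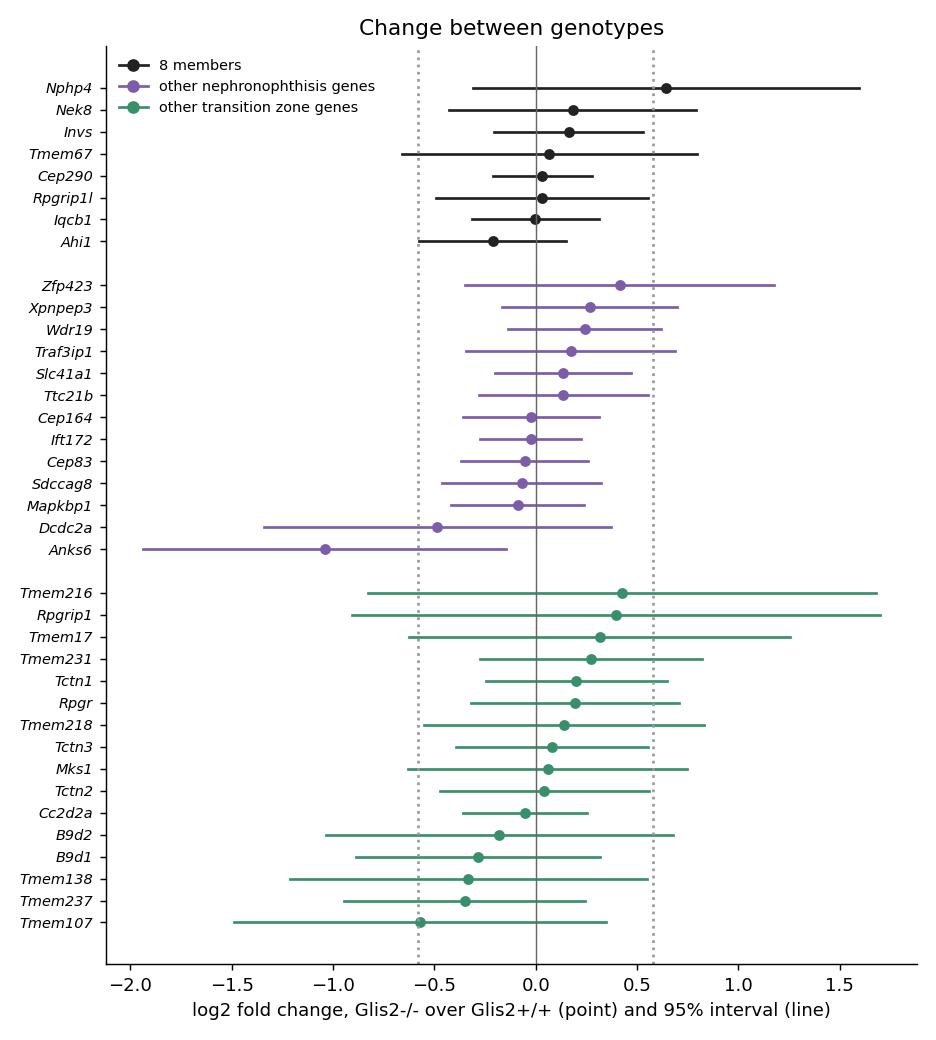
Log2 fold change of *Glis2*-/- over *Glis2*+/+ (points) with 95% intervals (lines) from edgeR, for the 8 genes, 13 other nephronophthisis genes and 16 other transition zone genes. Dotted lines mark 0.58 in each direction, and the interval of *Anks6*, −1.94 to −0.14, is the one that does not reach 0.

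*Anks6* was the exception in this group by its unadjusted p. It encodes an ankyrin repeat protein that binds NEK8 in the inversin compartment. It stood at 7.78, 2.91 and 5.87 CPM in *Glis2*+/+ and at 2.52, 2.70 and 2.81 CPM in *Glis2*-/- libraries. Each *Glis2*-/- library was below each *Glis2*+/+ library, as for 5.5% of all genes tested, but the nearest pair, 2.81 and 2.91 CPM, lay close together. The log2 fold change was −1.04 (standard error 0.39, unadjusted p = 0.0278 and adjusted p = 0.906 from edgeR), which does not pass. It was −0.23 for log2(TPM + 1) and −0.60 for rescaled TPM in limma, and between −1.35 and −0.73 with 1 library left out. This was 1 of the 29 genes of both lists with an unadjusted p under 0.05, against 5.32% of all genes tested. Whether *Anks6* differed from *Invs* and *Nek8* in its response was not tested.

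**Figure D5:**
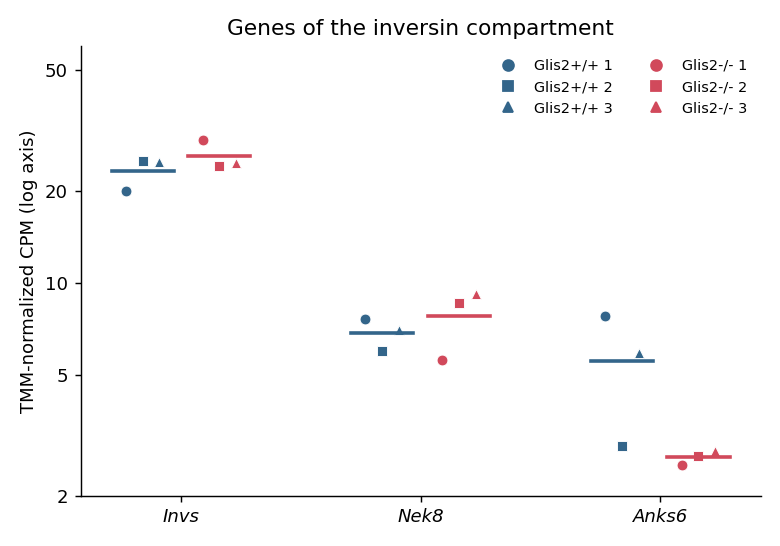
TMM-normalized CPM on a log axis for *Invs*, *Nek8* and *Anks6* of the inversin compartment in each library, with bars at the genotype means. *Invs* and *Nek8* overlap between the genotypes, and the 3 *Glis2*-/- values of *Anks6* lie between 2.52 and 2.81 CPM.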

How the data were processed

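The authors quantified paired-end reads with Salmon 1.2.1 against mm10 transcripts of an Ensembl annotation, using the genome sequence as decoy, and summarised them per gene with tximport. The deposited counts are estimated counts as whole numbers without scaling, and the deposited log2 values are log2(TPM + 1). Sharing of reads between transcripts and overlapping genes affects both. The library kit keeps strand, but the strand setting of the counting is not given in the sources used here, so reads of genes that overlap on opposite strands may not be separated. Of 54418 identifiers, 54166 matched GENCODE M21 (GRCm38). Of 92 genes in the lists used, 91 were matched (*Dnai1* was not).

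The counts were compared between genotypes with edgeR 4.0.16 (filterByExpr, TMM, quasi-likelihood test, Benjamini-Hochberg adjustment over 21236 genes), tested on simulated data. A gene was called where the adjusted p did not exceed 0.05 and the log2 fold change was 0.58 or more in either direction. Standard errors and 95% intervals were derived from the F statistic. Counting error is a lower limit, since these are PCR reads. The log2 values were fitted in limma 3.58.1, and DESeq2 1.42.0 with apeglm 1.24.0 was an alternative. No batch was labelled. The 8 genes and all lists were chosen with earlier results of these data known. Beside the 8 genes and *Glis2*, genes named are those of the 2 other lists with an unadjusted p under 0.05, the largest rise or fall, or the 3 highest correlations, and defining markers. *Cd79a*, *Tmem237*, Gm23935 and the genes that overlap the 8 were added after their values were seen. Some genes are not reported here.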

Additional observations from a re-analysis of the deposited data

How the results depend on the processing

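Over 14 alternatives, 0 of the 8 genes, 0 of the 13 other nephronophthisis genes and 0 of the 16 other transition zone genes were called in any fit, also without a fold threshold. Over all genes, edgeR called 0 (1130 had an unadjusted p below 0.05). This count was 45 with DESeq2 and apeglm, 40 without a filter on low counts, 1 with log2(TPM + 0.1) in limma, and 1 with log2(TPM + 1) after rescaling without Gm23935, an alternative chosen after seeing the data. *Invs*, *Nphp4* and *Ahi1* kept their direction in all 14 fits, and the other 5 did not, in 20 of 112 fits in all. In limma with log2(TPM + 1), log2(TPM + 0.1) and the rescaled TPM, in this order, the log2 fold changes were −0.27, −0.32 and −0.23 for *Cep290*, −0.23, −0.43 and −0.32 for *Nek8*, −0.057, −0.16 and −0.073 for *Tmem67*, −0.14, −0.25 and −0.15 for *Zfp423*, and −0.24, −0.34 and −0.24 for *Tctn1*. In the same order *Rpgrip1l* gave 0.23, 0.33 and 0.41 and *Ahi1* −0.28, −0.46 and −0.36. The offset of 0.1 moved the median of all genes to −0.14. With rescaled TPM, *Iqcb1* gave 0.020 and *Glis2* 0.078. Without 1 library, ranges were 0.044 to 0.22 for *Invs*, 0.033 to 0.37 for *Nek8*, −0.10 to 0.11 for *Iqcb1*, −0.038 to 0.084 for *Cep290*, −0.17 to 0.27 for *Rpgrip1l* and −0.18 to 0.28 for *Tmem67*. The cause was not tested.

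Replicate numbers were not taken as a pairing of the mice, and whether they are one is not known. The labels give no shared litter or batch, and deviations of same-numbered libraries correlated at −0.032, 0.29 and 0.057. With a replicate block, *Iqcb1* gave 0.0033, and the block left 0 genes called over all genes. *Nphp4*, *Tmem67* and *Nek8* had the fewest counts of the 8, with a counting error of 14.6%, 8.25% and 8.45% at their lowest count, below the spread between mice in both genotypes.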
